A study of Mus musculus with 24 samples.

Results

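The data describe 10 genes whose proteins build new centrioles: *Cep135*, *Plk4*, *Stil*, *Sass6*, *Cenpj*, *Cep152*, *Cep63*, *Cep192*, *Cep120* and *Ccp110*. They were chosen by symbol for their part in centriole duplication, and all 10 were found among the 54658 genes of the table. All 10 passed the filter on low values in every comparison.

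A centriole is a short barrel of microtubules, and a pair of them forms the core of the centrosome and, in many cells, the base of a cilium. In a dividing cell each old centriole seeds a single new one in S phase: CEP192, CEP152 and CEP63 recruit the kinase PLK4 to the old centriole, PLK4 phosphorylates STIL, and STIL with SASS6 builds the cartwheel that gives the new centriole its symmetry. CEP135 joins the cartwheel to the microtubule wall, CENPJ and CEP120 promote growth of the wall, and CCP110 caps its growing end. Several of these genes, *Cep135*, *Cenpj*, *Stil*, *Cep152*, *Cep63*, *Sass6* and *Plk4* among them, have human orthologs in which recessive mutations cause small brain size, and progenitors of the embryonic cortex divide many times while they carry these structures.

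RNA was measured in 24 libraries from 12 mouse embryos, labelled *Cep135* (-/-) or *Cep135* (+/+). The deletion was made by injecting CRISPR guides against exon 2 into B6.CBA zygotes, is carried in the germ line and so in every tissue, and is called Δ8 for the 8 bp it removes. The mice were kept on a C57BL/6J background and received no drug. Dorsal telencephalon was taken at embryonic stage E11.5 from mutants A, B and C and controls D, E and F, and at E14.5 from mutants 1, 2 and 6 and controls 3, 4 and 5. Cells of the same 6 E14.5 embryos were cultured as neurospheres, floating clusters grown from cortical progenitors, for 12 and for 24 hours. Each of the 8 groups therefore held 3 libraries, each from 1 embryo, and the 18 libraries of the E14.5 embryos are not independent. Titles gave mutant 6's cortex as E14.5 and its description gave E11.5, and it was taken as E14.5. Its summed count of 8 genes of postmitotic neurons was 28736. That sum was 27953 and 28017 in the cortices of mutants 1 and 2 and 8666 to 13035 in the E11.5 cortices. By *Xist* and transcripts of the Y chromosome embryos A, C, E, 1 and 2 were female, so all 3 E14.5 controls and 1 of the 3 E14.5 mutants were male.

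Libraries were made from the 3′ ends of polyadenylated RNA. Values are normalized read counts, that is, reads on a gene divided by 1 size factor per library, without correction for gene length, so levels are compared between groups and never between genes. The libraries held 4732781 to 11645213 reads on genes (median 8111692.5). At 24 hours depth did not overlap between mutants (7903426 to 11645213) and controls (4732781 to 5709443). *Gm42418*, an RNA gene that carries ribosomal sequence, took 6.11% to 34.8% of counts, and this share also did not overlap at 24 hours. Reads behind a single value ran from 33 (*Stil*) to 666 (*Cep120*). The forebrain markers *Emx1*, *Emx2*, *Lhx2*, *Pax6*, *Eomes*, *Neurod6* and *Tbr1* together reached 3723 to 8880 in the cortices and 4239 to 7470 in the neurospheres. In bulk tissue fewer cells that use a gene and less RNA per cell cannot be told apart.

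*Cep135* itself (chromosome 5 of GRCm38, 76588698 to 76646466, plus strand) has 26 exons in its principal transcript, *Cep135-202*. Its second exon spans 76591715 to 76591871 and is the first to hold coding sequence. The coding part of that exon, 113 bases of the reference and the stretch that the mutation hits, is given with the start codon in capitals.
Coding part of exon 2 (chr5:76591759-76591871, plus strand): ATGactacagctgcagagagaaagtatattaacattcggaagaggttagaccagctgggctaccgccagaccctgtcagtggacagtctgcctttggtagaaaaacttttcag
Another 5156 bases of the spliced transcript follow exon 2, and the last exon alone holds 1835. Reads from the 3′ end thus lie far from the deletion. They measure how much *Cep135* transcript is present and do not read the allele.

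RefSeq promoters on GRCm38.p6 were matched for 8 of the 10. The 250 bases before the start are shown for *Plk4*, *Stil* and *Sass6*, which fell most between the ages, and for *Cep135*. Capitals mark letters of 3 motifs searched on both strands: the cell cycle element CHR (TTTGAA or TTCGAA), E2F sites (TTTGGCGC, TTTCCCGC, TTTCGCGC or TTTGCCGC) and CCAAT, the box bound by NF-Y.
*Plk4* (chr3:40799701-40799950, plus strand): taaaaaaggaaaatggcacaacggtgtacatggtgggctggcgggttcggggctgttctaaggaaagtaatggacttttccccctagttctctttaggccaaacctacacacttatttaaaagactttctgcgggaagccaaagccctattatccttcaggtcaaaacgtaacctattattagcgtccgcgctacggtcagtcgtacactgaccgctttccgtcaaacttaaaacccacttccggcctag
*Stil* (chr4:114999868-115000117, plus strand): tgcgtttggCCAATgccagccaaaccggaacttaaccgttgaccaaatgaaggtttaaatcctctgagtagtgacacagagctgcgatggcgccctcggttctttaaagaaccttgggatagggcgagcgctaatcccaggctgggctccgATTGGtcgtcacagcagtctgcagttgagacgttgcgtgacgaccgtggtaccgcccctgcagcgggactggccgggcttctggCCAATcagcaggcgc
*Sass6* (chr3:116594708-116594957, plus strand): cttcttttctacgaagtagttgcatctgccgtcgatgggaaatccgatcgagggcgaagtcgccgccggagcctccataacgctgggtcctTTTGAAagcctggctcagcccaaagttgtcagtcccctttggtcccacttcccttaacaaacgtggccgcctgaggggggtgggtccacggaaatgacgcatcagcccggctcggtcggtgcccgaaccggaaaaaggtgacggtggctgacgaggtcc
*Cep135* (chr5:76588449-76588698, plus strand): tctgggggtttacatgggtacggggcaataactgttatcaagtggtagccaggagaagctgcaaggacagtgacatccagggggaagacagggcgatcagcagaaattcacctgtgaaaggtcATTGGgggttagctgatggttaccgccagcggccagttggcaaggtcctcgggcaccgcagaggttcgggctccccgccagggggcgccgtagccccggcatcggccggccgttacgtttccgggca
*Plk4* held none of these letters, *Stil* held CCAAT 3 times, *Sass6* held TTTGAA 159 bases before its start and *Cep135* held CCAAT on the opposite strand 127 bases before its start. Over the whole window of 250 bases before and 50 after the start, CHR letters were found in 2 of the 8 promoters and in 19.2% of all 32851, E2F letters in 1 of 8 (*Cep63*) and in 2.26% of all, and CCAAT in 3 of 8 and in 37.4% of all. A match of letters is a description of the sequence and not a bound site.

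The other genes lie on 7 chromosomes: *Plk4* (chromosome 3, 40800019 to 40816883, plus strand), *Sass6* (chromosome 3, 116594982 to 116631004, plus strand), *Stil* (chromosome 4, 115000159 to 115043196, plus strand), *Cep152* (chromosome 2, 125563088 to 125625113, minus strand), *Cep63* (chromosome 9, 102584588 to 102626534, minus strand), *Cep192* (chromosome 18, 67800107 to 67885170, plus strand), *Cenpj* (chromosome 14, 56526761 to 56575425, minus strand), *Cep120* (chromosome 18, 53681723 to 53744608, minus strand) and *Ccp110* (chromosome 7, 118712552 to 118737024, plus strand).

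Between E11.5 and E14.5 cortex 7 of the 10 genes fell and 0 rose. Titles of the E14.5 embryos began with a prefix that no E11.5 embryo had, and the titles do not explain it. Age cannot be told apart from this prefix in these cortices. Changes are log2 fold changes, and the test was limma on log2(normalized read count + 1) over 12 cortices with genotype as a term, with Benjamini-Hochberg adjustment over all 13650 genes and a threshold of 0.05. Across all genes 29.5% were lower at E14.5 and 24.1% higher by the same test, so a change in either direction was common at this step. The median log2 fold change was -0.51 for the 10 genes and -0.08 for all genes tested.

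**Figure D1:**
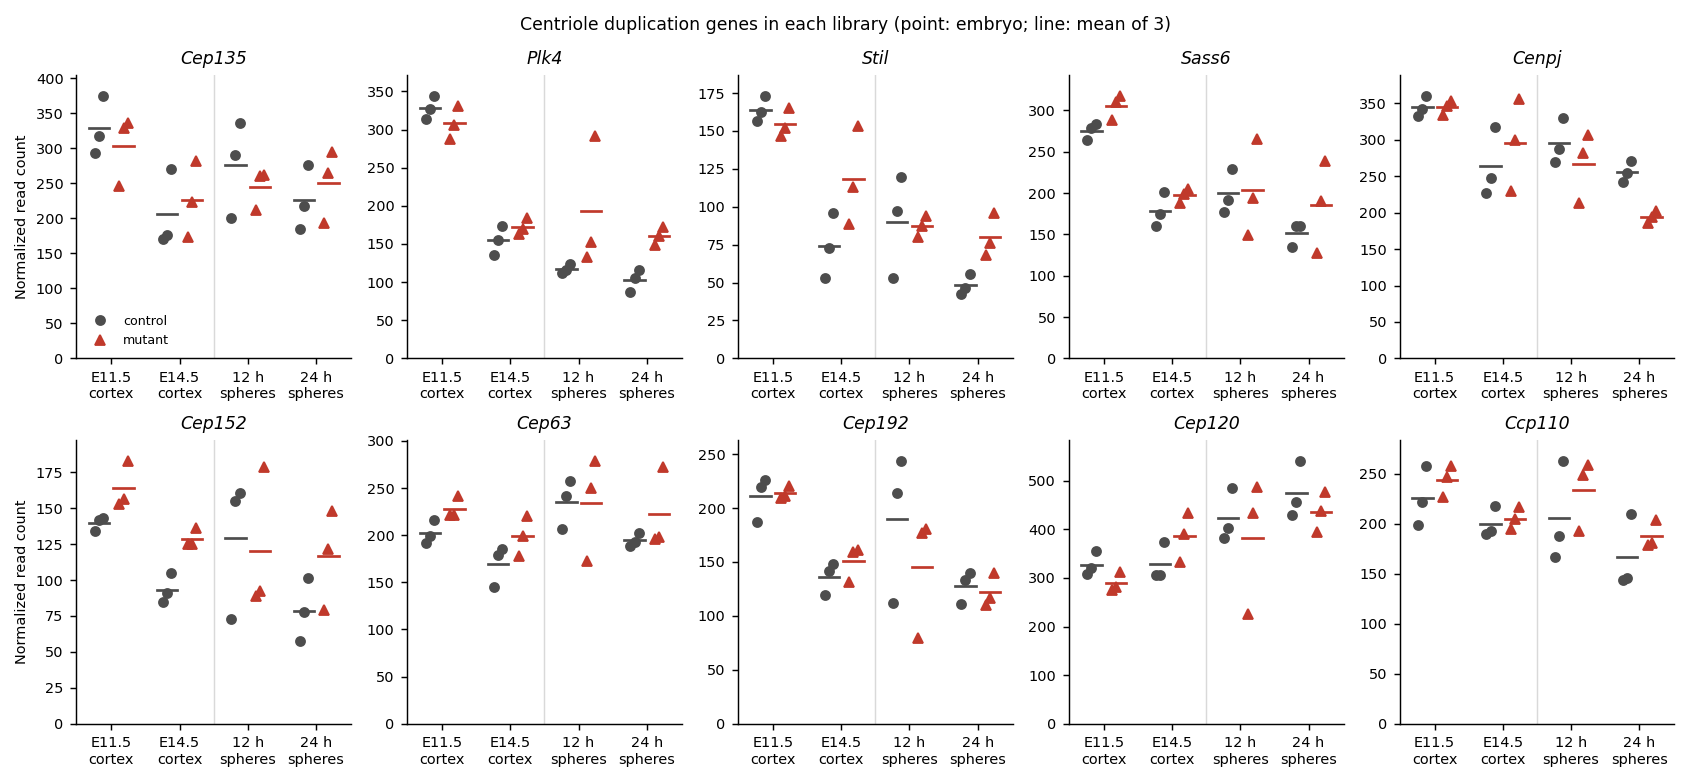
Normalized read counts of the 10 genes (vertical axes, each from 0) in the 4 conditions; grey circles are control and red triangles mutant embryos, and lines are means of 3. *Plk4*, *Sass6* and *Cep192* are lower in all 6 E14.5 cortices than in any E11.5 cortex, while *Cep120* is not.

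The genes of the kinase and the cartwheel fell most. *Plk4*, the kinase that starts duplication, ran from 288 through a median of 320.4 to 345 in the 6 E11.5 cortices and from 135 through 167 to 184 in the 6 at E14.5. The ages did not overlap, and the transcript was 1.95-fold lower at E14.5 (log2 change -0.96, standard error 0.09, adjusted p = 4.99e-07). *Stil*, the substrate of PLK4, ran from 146 through 159 to 173 and then from 52.9 through 92.1 to 153. A single E14.5 library, mutant 6, lay within the E11.5 range. It fell by 0.80 on the log2 scale (standard error 0.15, adjusted p = 0.000471). *Sass6*, the protein of the cartwheel spokes, ran from 264 through 286 to 318 and then from 159.99 through 194 to 205, again without overlap. It fell by 0.63 on the log2 scale (standard error 0.09, adjusted p = 2.32e-05).

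Of the 3 genes whose proteins bring PLK4 to the old centriole, 2 fell. *Cep192* ran from 187 through 215 to 226 at E11.5 and from 119.8 through 145 to 161 at E14.5, without overlap (log2 change -0.57, standard error 0.10, adjusted p = 0.000221). *Cep152* ran from 134 through 148 to 183 and then from 84.7 through 115 to 136, where the highest E14.5 cortex just passed the lowest at E11.5 (log2 change -0.46, standard error 0.10, adjusted p = 0.00123). The adjusted p of *Cep152* became 0.0712 when all 24 libraries shared 1 estimate of the spread. *Cep63*, which forms a ring with CEP152, ran from 192 through 219 to 242 and then from 145 through 182 to 221. It missed the threshold (log2 change -0.23, standard error 0.10, adjusted p = 0.0584), and passed it without control 5 (adjusted p = 0.0400) or mutant 6 (0.0340), with genes of a mean of at least 50 (0.0472) and with a term for sex (0.0413). Groups without overlap between ages were thus 3 of 10, all lower at E14.5, against 14.9% of all genes lower in this way.

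Of the 4 genes of the centriole wall and its growth, 2 fell. *Cep135* ran from 246 through 323 to 375 at E11.5 and from 171 through 199.98 to 283 at E14.5, with mutant 6 and control 5 inside the E11.5 range. It was 1.48-fold lower at E14.5 (log2 change -0.57, standard error 0.15, adjusted p = 0.00442). *Cenpj*, which sets the length of the wall, ran within 333 to 361 at E11.5 but from 227 through 274 to 356 at E14.5. It was called lower (log2 change -0.32, standard error 0.11, adjusted p = 0.0258), and the call was lost with edgeR (adjusted p = 0.0898) and DESeq2 (0.0771) and without E11.5 control D (0.0541), control 3 (0.0554), control 4 (0.0705) or mutant 2 (0.0729). *Ccp110*, the cap of the growing end, ran from 198 through 237 to 257 and then from 190.1 through 199.3 to 218. Its log2 change was -0.21 (standard error 0.09, adjusted p = 0.0731), and without control E it passed (0.0410). *Cep120*, a partner of CENPJ in elongation, ran from 274 through 309.8 to 355 and then from 306 through 353 to 434. Its log2 change was 0.20 (standard error 0.09, adjusted p = 0.0794), and it was called higher by edgeR (adjusted p = 0.0226), by DESeq2 (0.0225) and by limma without mutant 6 (0.0296).

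**Figure D2:**
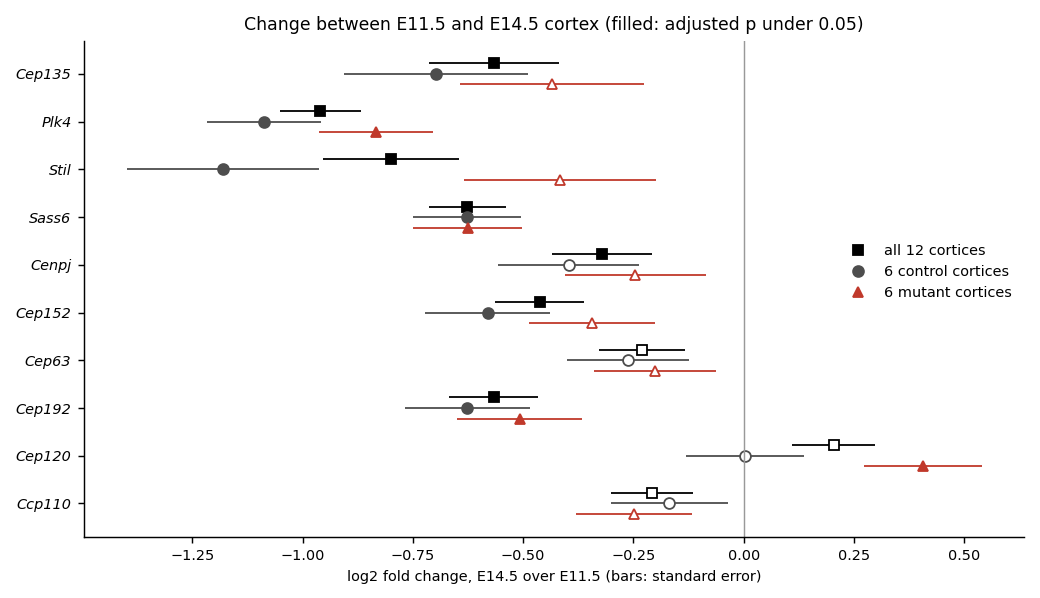
Log2 fold change of E14.5 over E11.5 cortex (horizontal axis) for each of the 10 genes, with standard errors; filled symbols passed an adjusted p of 0.05. Squares (all 12 cortices) of 9 genes lie below 0, from -0.96 for *Plk4* to -0.21 for *Ccp110*, and that of *Cep120* lies at 0.20.

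Within the 6 control cortices 6 genes were called, all lower at E14.5, against 20% of all genes lower by the same contrast: *Stil* (log2 change -1.18), *Plk4* (-1.09), *Cep135* (-0.70), *Sass6* (-0.63), *Cep192* (-0.63) and *Cep152* (-0.58). *Cep135* missed the threshold in controls without control E (adjusted p = 0.0632), 3 (0.0698) or 4 (0.0648). Within the 6 mutant cortices 3 were lower, against 21.6% of all genes, namely *Plk4* (-0.83), *Sass6* (-0.63) and *Cep192* (-0.51). In mutants *Cep120* was higher (0.41, adjusted p = 0.0238), against 19.1% of all genes. Without mutant 2 the count in mutants was 2 in place of 4, since *Cep192* (adjusted p = 0.0507) and *Cep120* (0.0630) dropped out. *Cep120* was also lost without A (0.0812), C (0.0711) or mutant 1 (0.111). With all 24 libraries in 1 fit *Cep192* (0.157) and *Cep120* (0.132) were lost in mutants, and *Cep152* (0.146) and *Cep192* (0.0785) in controls.

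These lists do not show a difference between genotypes, which the interaction of genotype and age tests. It called 0 of the 10 genes and 0% of all 13650 genes by limma, where 1070 genes had an unadjusted p under 0.05; edgeR called 0 and DESeq2 17 genes, with 0 of the 10. The lowest p among the 10 belonged to *Stil* (0.0258, adjusted 0.62), whose log2 change with age was 0.76 higher in mutants (standard error 0.31), and to *Cep120* (0.0490, adjusted 0.62; difference 0.40, standard error 0.19). The other 8 genes had an unadjusted p above the threshold.

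Sums of marker genes of cell types also differed between the ages. The summed count of 8 genes of cycling cells, *Mki67*, *Top2a*, *Cdk1*, *Ccna2*, *Ccnb1*, *Mcm2*, *Pcna* and *Aurkb*, was 18257 to 21307 at E11.5 and 9165 to 14440 at E14.5. The sum of 8 genes of postmitotic neurons, *Tubb3* and *Dcx* among them, was 8666 to 13035 and then 27953 to 38443. That of 8 genes of apical progenitors, with *Sox2* and *Hes5*, was 14385 to 18131 and then 9449 to 11292. Of these 8 genes 6 were called lower and 2 higher, against 29.5% of all genes lower and 24.1% higher. Over the same libraries the summed count of the 10 duplication genes was 2448 to 2643 at E11.5 and 1695 to 2220 at E14.5. No gene of these lists was at 0 throughout, and their part in the fall of the centriole genes was not tested.

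**Figure D3:**
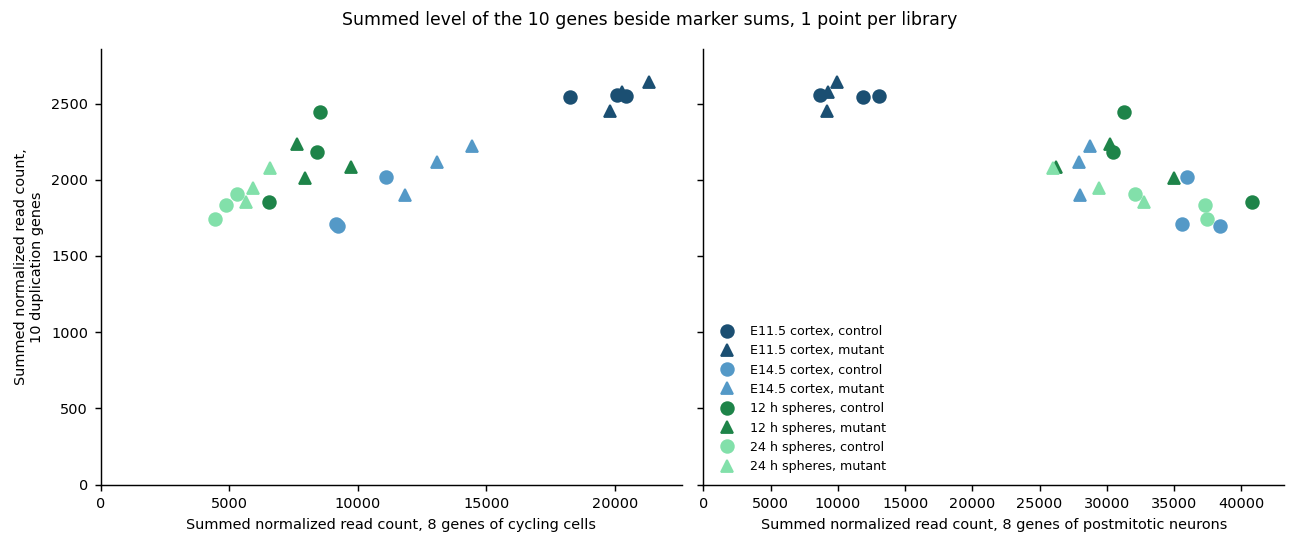
Summed normalized read count of the 10 genes (vertical axes) against that of 8 genes of cycling cells (left) and 8 genes of postmitotic neurons (right), 1 point per library, coloured by condition with circles for controls and triangles for mutants. The 6 E11.5 cortices lie highest for cycling genes and lowest for neuronal genes, and the neurospheres lie at 4449 to 9729 for cycling genes with 1745 to 2445 for the 10 genes.

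Other centriole genes were read beside these. Of a list of 30 that act in the centriole core, its length or its number, 14 were lower at E14.5, 3 were higher and 13 did not pass, with a median log2 fold change of -0.38. Over all genes 29.5% were lower and 24.1% higher at this step, so with both directions counted together the list was called about as often as all genes were. The 3 lower genes with the smallest p were *Spice1* (-0.62, adjusted p = 6.44e-05), needed for duplication and spindle assembly, *Wdr90* (-0.99, adjusted p = 0.000128), of the inner scaffold, and *Cetn2* (-0.40, adjusted p = 0.000329), the centrin of the distal lumen. The 3 higher genes were *Usp33* (0.51, adjusted p = 0.00108), a deubiquitinase that stabilizes CCP110, *Poc5* (0.36, adjusted p = 0.00721), of the inner scaffold, and *Neurl4* (0.36, adjusted p = 0.0165), a partner of CCP110. Of 9 genes of the mother centriole's appendages 4 were lower: *Odf2* (-0.45, adjusted p = 0.000252), *Cep164* (-0.62, adjusted p = 0.000456), *Cntrl* (-0.49, adjusted p = 0.00764) and *Cep89* (-0.41, adjusted p = 0.00807). *Nin*, which anchors microtubules at subdistal appendages, was higher (0.34, adjusted p = 0.0129), and the other 4 did not pass, beside the same shares of all genes. With all 24 libraries in 1 fit the count among the 30 was 11 in place of 17.

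**Figure D4:**
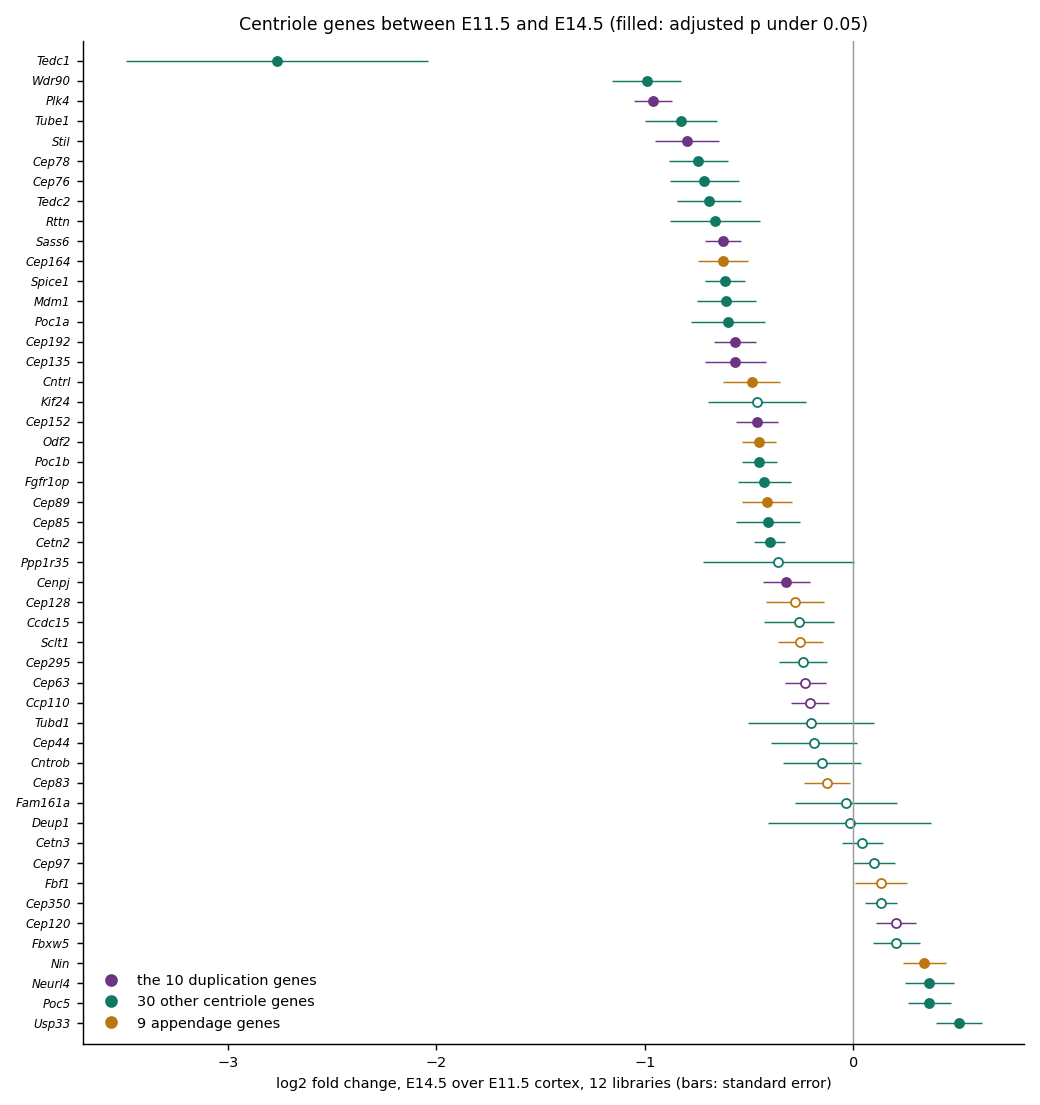
Log2 fold change of E14.5 over E11.5 cortex with standard errors for the 10 duplication genes (purple), 30 other centriole genes (green) and 9 appendage genes (orange), sorted; filled points passed an adjusted p of 0.05. *Plk4* (-0.96) and *Stil* (-0.80) lie among the lowest, and *Usp33* (0.51) is at the upper end.

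Mutants were compared with controls to see whether loss of a protein of the cartwheel and wall goes with other levels of the transcripts of its partners. At each of the 4 conditions limma called 0 of the 10 genes. EdgeR and DESeq2 on whole reads also called 0 of the 10. Over all genes limma called 0.0149% for the E11.5 cortices and 0.0736% for those of E14.5. For 12 hour neurospheres it called 0% (649 genes had an unadjusted p under 0.05, edgeR called 0 and DESeq2 9 genes), and for 24 hour ones 0.271%. Pooling the 12 cortices, with age in the model, it called 0.183%. *Cep135*, the mutated gene, overlapped between genotypes in every condition. Over the 12 cortices mutants differed by 0.01 on the log2 scale (standard error 0.15, adjusted p = 0.991), and the sign turned with quantile normalization (-0.00398), edgeR (-0.00521) and DESeq2 (-0.00314) and when any 1 of 7 libraries was left out. Unadjusted p-values under 0.05 were found for 0 of the 10 genes at E11.5, 2 at E14.5 (*Stil* and *Cep152*), 0 at 12 hours and 3 at 24 hours (*Plk4*, *Stil* and *Cenpj*).

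**Figure D5:**
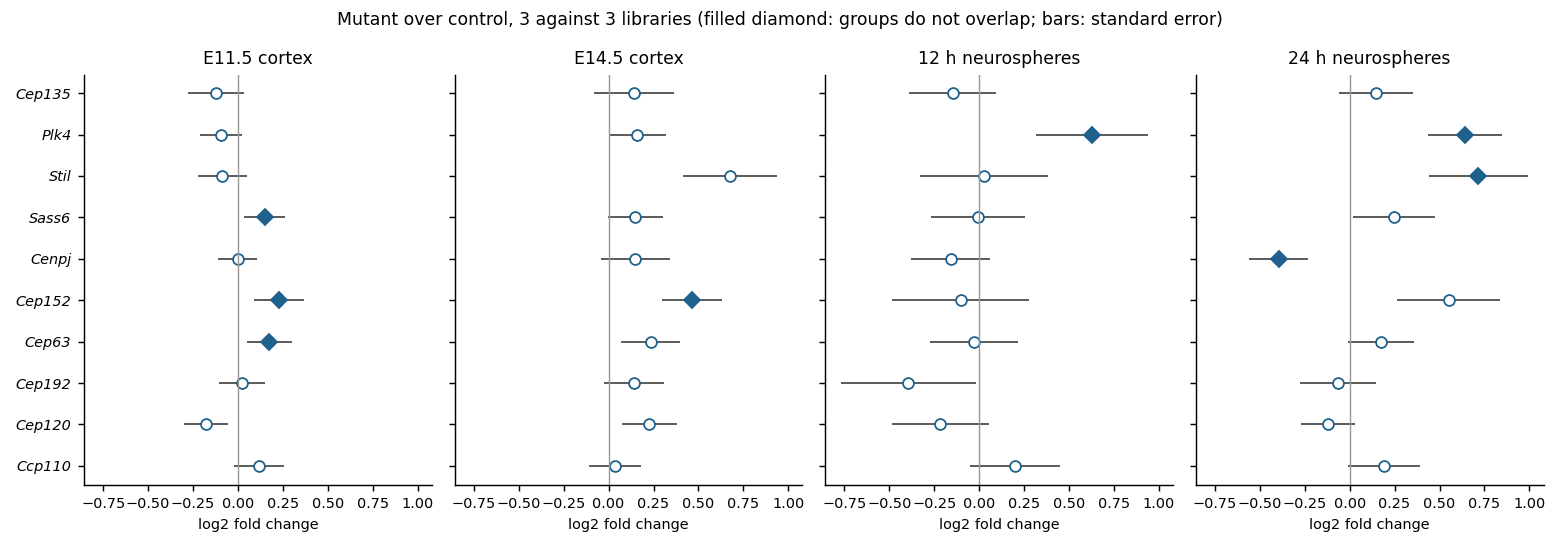
Log2 fold change of mutant over control (horizontal axes, standard errors as bars) for the 10 genes in the 4 conditions, 3 against 3 libraries each. Filled diamonds mark the 8 cases in which mutant and control values do not overlap, 7 of them higher and 1 (*Cenpj* at 24 hours) lower in mutants; none passed an adjusted p of 0.05.

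*Cep152* was the gene whose mutant cortices lay above the controls at both ages. E11.5 mutants A, B and C had counts of 153, 183 and 156, where controls D, E and F had 142, 134 and 143. E14.5 mutants 1, 2 and 6 had counts of 125, 125 and 136, where controls 3, 4 and 5 had 84.7, 90.7 and 105. All 3 mutants exceeded all 3 controls each time, a pattern found for 0.813% of all genes. On the log2 scale the difference was 0.23 (standard error 0.14, adjusted p = 0.724) at E11.5, 0.46 (standard error 0.17, adjusted p = 0.507) at E14.5 and 0.35 (standard error 0.10, unadjusted p = 0.00368, adjusted p = 0.286) in the 12 cortices. This gene was singled out after its values were seen. In neurospheres the genotypes overlapped: after 12 hours mutants had *Cep152* counts of 178, 92.6 and 88.7, where controls had 160.5, 155 and 72.9.

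Also at E11.5, mutants A, B and C had *Cep63* counts of 221, 242 and 221, where controls D, E and F had 199.5, 192 and 216 (log2 change 0.17, standard error 0.13, adjusted p = 0.755). For *Sass6* these mutants had 318, 310.1 and 288, where these controls had 284, 278 and 264 (log2 change 0.15, standard error 0.12, adjusted p = 0.765). Mutants did not overlap controls for 3 of the 10 genes at E11.5, all higher, against 7.16% of all genes, and for 1 of 10 at E14.5 against 7.02%. With 3 against 3 the smallest exact permutation p is 0.1, so no single condition could pass by that test. E14.5 mutants 1, 2 and 6 had *Stil* counts of 113, 88.3 and 153, where controls 3, 4 and 5 had 52.9, 72.6 and 95.9, with overlap of a mutant and a control. Its log2 change was 0.68 (standard error 0.26, adjusted p = 0.509). A fit with a term for sex gave 1.09, but it sets mutant 6, the only male mutant, alone against the controls, all male.

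Sums of marker lists also differed between genotypes. In the E14.5 cortices the sum of the 8 cycling genes was 11842 to 14440 in mutants and 9165 to 11087 in controls, without overlap. At the same age that of the 8 neuronal genes was 27953 to 28736 in mutants and 35606 to 38443 in controls. The sum of 5 microglia genes was 724 to 892 in E14.5 mutants and 379 to 443 in controls. At E11.5 the cycling sums overlapped (19798 to 21307 against 18257 to 20408), while mutants lay above controls for 5 genes of endothelium (1086 to 1218 against 945 to 1041) and 11 of liver (79.2 to 863 against 49.0 to 51.4) and below them for 7 of dorsal telencephalon (3723 to 4565 against 4668 to 5439), as also at E14.5 (5951 to 7632 against 7818 to 8880). Their part in the values of the centriole genes was not tested. The median log2 fold change at E14.5 was 0.15 for the 10 genes, 0.15 for the 29 tested of the 30 other centriole genes and 0.32 for the 9 appendage genes, beside 0.01 for all genes. That of the 10 genes became 0.30 without control 5 and 0.27 without mutant 2. It was 0.31 with a term for sex, a fit that sets mutant 6, the only male mutant, alone against the controls. In no condition was a gene of either list called by limma, edgeR or DESeq2. In limma an unadjusted p under 0.05 was found for 0 to 2 of the 30 and 0 to 4 of the 9 per condition.

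In neurospheres the genes without overlap of genotypes were the starting kinase, its substrate and the elongation factor. After 12 hours mutants 1, 2 and 6 had *Plk4* counts of 134, 153 and 292, where controls 3, 4 and 5 had 116, 123 and 112 (log2 change 0.63, standard error 0.31, adjusted p = 0.914). Mutant 6 was far above the rest, and without it the log2 fold change was 0.28. A fit with a term for sex gave 1.31, but it sets mutant 6, the only male mutant, alone against the controls, all male. After 24 hours, in the same order of embryos, mutants had 148, 161 and 173, where controls had 105, 87.6 and 116 (log2 change 0.64, standard error 0.21, unadjusted p = 0.00738, adjusted p = 0.252). For *Stil* the 24 hour mutants had 68.1, 96.2 and 76.0, where controls had 46.4, 55.6 and 42.5 (log2 change 0.71, standard error 0.28, adjusted p = 0.364). *Cenpj* was lower in mutants, with counts of 203, 186 and 195 for mutants where controls had 270.4, 243 and 255 (log2 change -0.39, standard error 0.16, adjusted p = 0.401).

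At 12 hours the higher mutants without overlap were 1 of 10 genes, against 5.09% of all genes. At 24 hours they were 2 of 10 against 7.15%, and the lower ones 1 of 10 against 9.06%. The 24 hour groups also did not overlap in depth, in the share of *Gm42418* (20.5% to 23.0% in mutants, 6.26% to 13.9% in controls), in 11 liver genes (summed 115 to 383 in mutants, 12.5 to 33.7 in controls), in the cycling genes (5639 to 6571 and 4449 to 5307), in 4 genes of intermediate progenitors (1270.4 to 1367 and 989 to 1095) or in the apical progenitor genes (12079 to 13277 and 9389 to 10593). At 12 hours the genotypes did not overlap in the intermediate progenitor genes (1447 to 1662 in mutants, 1230 to 1316 in controls), in the endothelial genes (70.5 to 102 and 24.3 to 50.3), in the microglia genes (6.31 to 14.6 and 18.8 to 40.9) or in 4 genes of multiciliated cells (41.9 to 67.2 and 17.6 to 33.0). These features cannot be told apart from genotype in 3 against 3 libraries.

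From E14.5 cortex to 12 hours in culture 0 of the 10 genes were called by limma, edgeR or DESeq2 (1 had an unadjusted p under 0.05 in limma), against 16.1% of all genes lower and 14.1% higher over the same 12 libraries. The median log2 fold change was 0.10 for the 10 genes and -0.06 for all. It was 0.16 by edgeR, 0.02 without the neurospheres of control 3, 0.06 without those of mutant 1 and 0.16 without those of control 5. *Cep63* came nearest, from 145, 179 and 185 in the cortices of controls 3, 4 and 5 to 206, 242 and 257 in their neurospheres, and from 198.7, 178 and 221 to 279, 250.4 and 173 in mutants 1, 2 and 6. It was higher in 5 of 6 embryos, all but mutant 6 (log2 change 0.34, standard error 0.15, adjusted p = 0.0875). Without the neurospheres of mutant 6 it passed (adjusted p = 0.0181), as it did with all 24 libraries in 1 fit (0.0302). The interaction of genotype and culture called 0 of the 10 genes and 0% of all by limma, where 724 genes had an unadjusted p under 0.05, edgeR called 1 gene and DESeq2 5.

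At 12 hours single libraries lay far from the others of their group for some genes. *Cep192* was 244, 214 and 112 in the neurospheres of controls 3, 4 and 5 and 176, 181 and 79.7 in those of mutants 1, 2 and 6. *Cep120* was 484, 382 and 403 in these controls and 433, 487 and 225 in these mutants. Mutant 6 thus held the lowest value of both genes and of *Cep63* together with the highest of *Plk4* and *Sass6* (266). Its share of *Gm42418* was 32.7%, beside 10.7% to 34.8% over the 6 libraries of that time. This library had 16377 genes above 0, the fewest of all libraries, beside 17916 to 20638 in the others of that time. Its 10620164 reads on genes were the most of that time.

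Of the 30 other centriole genes 28 passed the filter and 3 of these were called, against 16.1% of all genes lower and 14.1% higher at this step. *Kif24*, a kinesin that works with CCP110 against cilium growth, was higher (log2 change 1.38, adjusted p = 0.00278), and *Spice1* (-0.75, adjusted p = 0.00431) and *Poc1a* (-1.50, adjusted p = 0.0218), of the centriole wall, were lower. The call of *Poc1a* was lost with edgeR (adjusted p = 0.0687) and without the cortex of control 5 (0.0510) or the neurospheres of control 4 (0.0510), and without the neurospheres of control 5 the list had 5 calls in place of 3. Of the 9 appendage genes 3 were called, beside the same shares of all genes: *Cep83* (0.78, adjusted p = 0.000153), at the base of the distal appendages, and *Nin* (0.86, adjusted p = 0.000246) were higher and *Cep89* (-0.62, adjusted p = 0.0113) was lower. Over the same step the cycling sum was 9165 to 14440 in cortex and 6534 to 9729 in culture. Of the 8 apical progenitor genes 6 were called lower and 1 higher. Their sum overlapped between cortex (9449 to 11292) and culture (8214 to 11486). The sum of 7 erythroid genes was 38225 to 45317 in cortex and 69405 to 153050 in culture, with 7 of 7 called higher. That of 5 microglia genes was 379 to 892 in cortex and 6.31 to 40.9 in culture, and that of 5 endothelial genes was 793 to 933 and then 24.3 to 102, with 5 of 5 called lower in both lists. Their part in these values was not tested.

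From 12 to 24 hours 0 of the 10 genes were called by limma, edgeR or DESeq2 (2 had an unadjusted p under 0.05 in limma), against 0.255% of all genes. *Cenpj* was lower at 24 hours in the neurospheres of 6 of 6 embryos: it went from 330.3, 270.1 and 288 to 270.4, 243 and 255 in controls 3, 4 and 5 and from 306, 214 and 282 to 203, 186 and 195 in mutants 1, 2 and 6 (log2 change -0.32, standard error 0.13, adjusted p = 0.431). *Stil* was lower in 5 of 6, all but mutant 2 (log2 change -0.48, standard error 0.22, adjusted p = 0.551). The median was -0.28 for the 10 genes and 0.02 for all genes tested. The interaction of genotype and culture time called 0 of 10 and 0% of all by limma, edgeR and DESeq2, where 318 genes had an unadjusted p under 0.05 in limma, and neither centriole list had a call.

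Ordered over the 8 groups by their means, *Plk4* stood highest in E11.5 controls (328.5 ± 15.2, SD, n = 3) and lowest in 24 hour controls (103 ± 14.4). Neighbours in that order overlapped except for E14.5 controls (155 ± 19.5) over 12 hour controls. *Stil* was lowest in 24 hour controls (48.2 ± 6.73), and *Cenpj* in 24 hour mutants (195 ± 8.28), which lay wholly below the next group, the 24 hour controls (256 ± 13.9). *Cep120* had its lowest mean in E11.5 mutants (289 ± 20.3) and its highest in 24 hour controls (476 ± 57.9). For *Cep135*, highest in E11.5 controls (329 ± 42.2) and lowest in E14.5 controls (206 ± 56.5), every pair of neighbours overlapped.

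Over the 24 libraries, the 5 genes of 9661 with a mean of at least 50 whose log2 values were most like those of *Cep135* were *Tubgcp4* (Pearson r = 0.83), of the γ-tubulin ring complex, *Eef1d* (0.82), a translation elongation factor, *Rad50* (0.81), of DNA break repair, *Dbf4* (0.81), which activates a kinase of DNA replication, and *Kif20b* (0.79), a kinesin of cell division. For the summed z scores of the 10 genes they were *Atad2* (0.94), *Lig1* (0.92), *Mybl2* (0.92), *Pold3* (0.89) and *Rad18* (0.89), which act in S phase transcription, DNA synthesis or repair. These 24 points share embryos, stages and size factors and fall into separate stages, so the coefficients describe likeness of pattern in these libraries.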

How the data were processed

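The 10 genes and the gene lists were chosen with earlier results of these data known. The authors removed adapters, aligned single reads to GRCm38 (TopHat2 2.0.10, Bowtie 1.0.0, SAMtools 0.1.19), counted them on GENCODE vM20 genes by strand (HTSeq 0.6.1), and deposited signal: read counts divided by 1 size factor per library, unpooled. All 484666 values above 0 were whole reads within 0.0001 of a read, which served edgeR and DESeq2. No column was left out. Values were log2 transformed after adding 1, genes whose mean over the libraries of a fit reached 10 were fitted with limma 3.58.1 in R 4.3.3, and p-values were two-sided and Benjamini-Hochberg adjusted over all genes. In the genotype and age comparisons this measures spread between embryos. Fits of the culture steps and of all 24 libraries took libraries of the same embryo as independent, unless the embryo was a block. PCR copies were not removed by molecular identifiers. Fits and tables were tested on simulated data.

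Genes named were the 10 and, of 30 other centriole and 9 appendage genes, up to 3 higher and 3 lower per comparison with the smallest p past the threshold. Appendage genes past 3 were named since 4 were lower. A marker gene of the forebrain list is not reported here and is left out of its sums. Positions are from GENCODE vM21. Alternatives were pseudocounts of 0.5 and 5, no filter, a mean of at least 50, quantile normalization, edgeR 4.0.16, DESeq2 1.42.0 and all 24 libraries in 1 fit. Further ones were a term for sex, the title prefix or the embryo as a block, and leaving out each library. In the genotype comparisons of the E14.5 embryos and their neurospheres, the term for sex left mutant 6 alone against the controls. The prefix block was used for the E11.5 genotype comparison alone. By title, A and D shared a prefix, and B, C, E and F shared another. The column headers gave mutants B and C a prefix that controls E and F did not have. By these headers prefix and genotype cannot be told apart among B, C, E and F, and the title block does not adjust for this. The embryo pairs cortex and cultures by the labels: deviations from group means correlated at -0.111 to 0.243 over 18 pairs.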

Additional observations from a re-analysis of the deposited data

How the results depend on the processing

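The counts of the 10 genes called stayed at 0 for mutants against controls in each condition, for the 24 against 12 hour cultures and for the 3 interactions under every alternative run, and leaving out single libraries gave 0 to 0. For E14.5 over E11.5 cortex the count of 7 ran from 6 to 9 without single libraries. For 12 hour neurospheres over E14.5 cortex it was 0 and became 1, *Cep63*, with all 24 libraries in 1 fit, and 0 to 1 without single libraries. With the embryo as a replicate block, which uses the pairing of cortex and culture, the counts were 0 for both culture steps and their interactions with genotype, so the block changed no call. The log2 fold change of *Cep135* between genotypes in the 12 cortices turned from 0.01 to -0.00398 (quantile normalization), -0.00521 (edgeR) and -0.00314 (DESeq2), and ran from -0.0771 to 0.116 without single libraries; the cause was not tested. Depth limits the 24 hour controls most, where *Stil* had as few as 33 reads, and a fold on the log2(count + 1) scale slightly understates low genes.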

Other observations

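Of the 30 other centriole genes *Tedc1*, a partner of the tubulins of the centriole triplet, had the lowest log2 fold change between the ages (-2.76, standard error 0.72, adjusted p = 0.00475 from limma); it was singled out after its values were seen. *Tedc1* ran from 47.4 to 105 in the E11.5 cortices, from 2.90 to 47.1 in E14.5 controls and from 1.13 to 62.9 in E14.5 mutants, so the ages overlapped and the spread at E14.5 was wide.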
